A study of Mus musculus with 6 samples.

Results

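An intron-spanning alignment is one whose pieces lie on different exons, so that it covers more of the chromosome than the read is long. The members described here were chosen by their mapping score and span, as the deposited records with the highest mapping score that extend over at least 100 nt of the chromosome, with identical second records dropped. What this choice fixes, that all spans are long, is no finding. A region is 1 distinct chromosome, start, end and strand. By this rule 55130 records formed 3112 regions, among 77178 distinct alignments of any span and score. Of the regions, 2248 were found in mES, 1035 in mEF and 171 in both.

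The records come from Hi-SCL, a drop-based method that labels the RNA of single cells with 1 of 1152 barcodes at the polyA tail, so that reads come from the 3′ part of transcripts. One cell type was the V6.5 line of embryonic stem cells of the mouse (mES), grown with leukemia inhibitory factor (LIF) and BME, and the other was commercial mouse embryonic fibroblasts (mEF, 10.5 days post coitum), grown without them. Both media held 15% fetal bovine serum, and the labels give neither group a treatment or an engineered allele. Each of the 6 libraries is labelled with both types, and the authors pooled the reads of each type, so there is 1 aggregate per cell type, no replicate and no test between cell types. All intervals are exact 95% intervals that cover counting error only, and records that PCR copied from 1 molecule are not independent.

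When a gene is transcribed, its introns are cut out and its exons are joined. A read that crosses such a joint is aligned in pieces, and the gap between the pieces has the length of the intron. In mammals, genes of ribosomal proteins, the protein parts of the machine that builds proteins, are short, have several introns and give abundant RNA.

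The first 2 sequences are the joints in coding sequence that carried the most records among those found in both cell types and with both read lengths, and so the best sampled of them. Each line gives 15 bases of the upstream exon in lower case and 15 bases of the downstream exon in capitals, read 5′ to 3′ from GENCODE M21 transcripts.
Rpl13a: aagaagcagatcttgAGGTTACGGAAACAG
Rpl23a: caataccctgataagGCCCGACGGAGAGAA

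The region with the most records over the Rpl13a joint was chr7:52381391-52381507 (mm9, minus strand), with 117 mES and 211 mEF records. Over the Rpl23a joint it was chr11:77994702-77994929 (mm9, minus strand), with 153 and 84. The introns between these exons are 82 and 193 nt long. Both genes encode proteins of the ribosome.

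A further pair shows the joint of Rps24, another ribosomal protein gene, with and without a 20-nt exon. In the first line the exons on either side are joined directly, with the downstream exon in capitals, and in the second line the short exon stands in capitals between 5 bases of each neighbour.
Rps24 skipped: ggtgctggcaaaaagCCAAAGGAGTAGATC
Rps24 included: aaaagTGAGTGGAGATTGGATACAGccaaa
A region of the first kind was chr14:25312691-25315006 (mm9, plus strand), with 0 mES and 44 mEF records. A region of the second kind was chr14:25312703-25314998 (mm9, plus strand), with 0 mES and 84 mEF records. The counts of both forms are given with the overlapping introns.

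The records are in mm9, and the annotation used here is of GRCm38, so no position was carried from one to the other. Genes were named from intron structure alone, starting from the gap, the span less the read length. The read length was 35 nt in the runs with the most records (runs 1 and 2) and 45 nt in run 3. The 3112 regions crossed 1754 introns, counting as 1 intron the regions of a strand with the same gap whose reads could share its position. Of these introns, 868 were placed because another crossed intron of the same gene lay at the annotated distance, and 663 because only 1 gene with an intron of this length fitted between the placed neighbours. Together with 8 gaps made of 2 introns, this named 1539 introns in 982 genes, or 92.6% of regions and 95.9% of records. The length and order of 209 introns allowed several genes, 4 were out of the order of genes and 2 had a length with no match.

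The gap equaled the length of an annotated intron on the same chromosome and strand in 3103 of 3112 regions (99.7%, 99.5% to 99.9%). The paper states that reads were aligned to a reference transcriptome. If known introns were thereby given to the aligner, the gaps would equal annotated lengths by construction. This share is therefore no independent test of splicing. In mES this held for 2245 of 2248 regions and in mEF for 1028 of 1035. Short lengths are common among introns, so the opposite strand, where no such intron should be crossed, gives the level reached by length alone. There, 98.9% of gaps under 150 nt found a match, against 100% on the record's strand, while for gaps of 2000 nt or more the shares were 32.7% (28.6% to 37.0%) and 99.6% (98.6% to 99.9%). The length alone is thus informative only for long gaps, and names of short introns rest on distance and order. In all, 2 names were dropped because they broke the gene order of the annotation. For 866 introns placed by distance, neighbours alone left only the placed gene for 770 and several genes for 96. The placed gene always lay between its neighbours by construction, so another gene alone could not result. These counts therefore do not test the placement by distance. Of 256 other introns whose length is found in 1 gene only, 251 lay between the right neighbours.

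**Figure D1:**
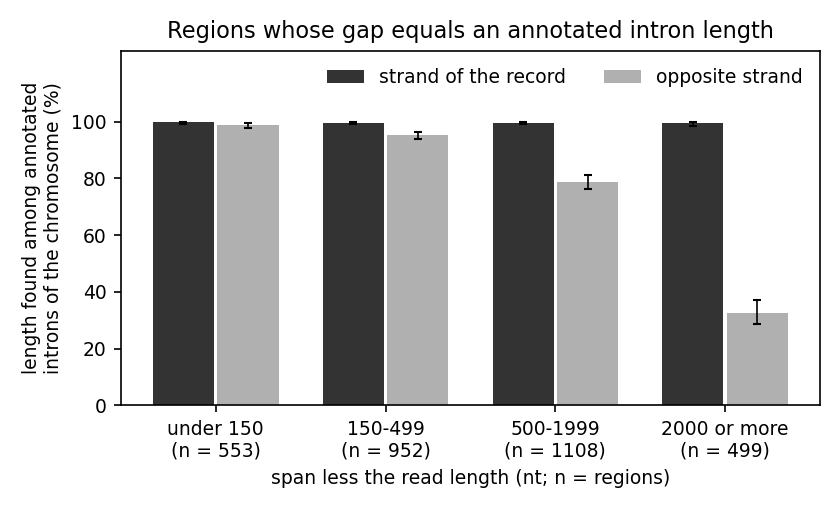
The share of regions (y axis, %) whose span less the read length equals the length of an annotated intron of the chromosome, by length (x axis, nt), on the strand of the record and on the opposite strand; bars are shares and lines exact 95% intervals. Both strands are near 100% for lengths under 150 nt, and the opposite strand falls to 32.7% at 2000 nt or more.

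RNAs that have no introns gave few or no regions. Of 17655 records with the highest score on the mitochondrial chromosome, whose genes lack introns, 0 spanned 100 nt or more, which allows a share of up to 0.017%. Malat1 and Neat1, nuclear RNAs that are mostly unspliced, had 0 regions. Among 66 replication-dependent histone genes only Hist1h2bc had a region, with 11 mEF and 0 mES records. A gene was named only through an annotated intron, so one without such an intron had 0 regions by construction. Of these counts, only the mitochondrial one does not depend on the naming. Nearly all named genes, 974 of 982, were protein-coding. The others included Gas5 and Snhg1, host genes of small nucleolar RNAs, with 51 and 22 mES records and 72 and 43 mEF records, and Meg3, an imprinted long RNA, with 14 and 14. Such counts are not adjusted for depth, and since mES had more records than mEF, equal counts are a higher level in mEF.

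Intron-spanning records were 5.82% (5.76% to 5.89%) of the 563663 mES records with the highest score and 6.29% (6.21% to 6.37%) of the 354705 mEF records. Run 3 differed from runs 1 and 2 by more than the cell types differed, whereas runs 1 and 2 differed from each other by less. Runs 1, 2 and 3 had 6.18%, 6.004% and 3.75% in mES, and 6.59%, 6.34% and 3.08% in mEF. Run 3, with the longer reads, thus had the lowest share in both, and the order of mES and mEF in run 3 was opposite to that in runs 1 and 2. Counting each distinct position once, the shares were 5.46% in mES and 5.22% in mEF.

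The rule's limit of 100 nt fell in an empty stretch of the distribution. Below it, the longest span was 46 nt in mES and 45 nt in mEF, and no record spanned 47 to 99 nt. Above it, the shortest member spanned 101 nt in mES and 111 nt in mEF, and 29 mES records in 3 regions spanned up to 110 nt. The 101-nt region was named Sgf29, which encodes a chromatin-binding subunit of the SAGA complex, and held 11 mES records. The shortest mEF region, chr10:79855760-79855870 (mm9, minus strand), could not be named and held 9 mES and 13 mEF records.

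Spans were alike in the aggregates, with a median of 552.5 nt and an interquartile range of 231 to 1306 nt in mES, and 551 nt and 251 to 1188 nt in mEF. Spans of 500 nt to below 1000 nt were the most frequent class in both, with 19.5% (17.9% to 21.2%) of mES and 23.2% (20.7% to 25.9%) of mEF regions. Regions of 10000 nt or more were 49 in mES and 19 in mEF. The longest was 92435 nt in mES, with 6 records of run 3 over the last intron of Rsu1, a gene for a focal adhesion protein. In mEF it was 70785 nt, with 26 records over the last intron of Supt3, a gene for a transcription cofactor subunit. Both were named by gene order. The median span of runs 1, 2 and 3 was 458, 464.5 and 861 nt for mES and 533.5, 500 and 640 nt for mEF, so regions of run 3 were the longest in both.

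**Figure D2:**
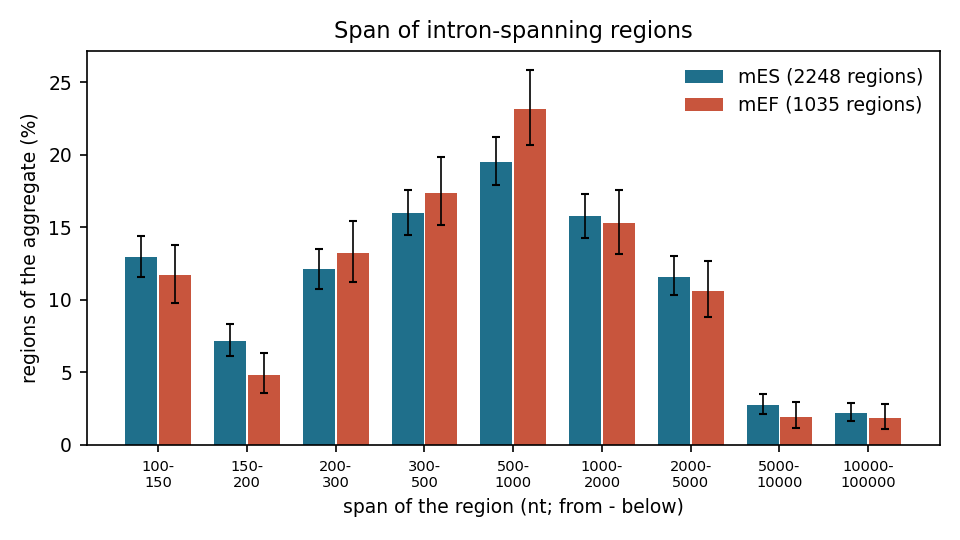
Share of regions (y axis, %) by span (x axis, nt, in classes) for the 2248 mES and 1035 mEF regions; lines are exact 95% intervals. The classes have their highest share at 500 nt to below 1000 nt in both aggregates, where mES has 19.5% and mEF 23.2%.

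A region held a median of 10 records in mES and 15 in mEF, with at most 351 and 245. A lone record made up 313 mES and 138 mEF regions, 13.9% and 13.3%. The records were spread widely, as the 10 regions with the most records held 6.54% of mES and 7.35% of mEF intron-spanning records. With 35-nt reads, 884 of 1234 introns (71.6%) were crossed at a single start, and the most starts over an intron was 20. With reads of both lengths, the intron crossed by the most regions, 22, was the first of Rpl38, which is 171 nt long and lies in the 5′ UTR.

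Runs 1 and 2 gave nearly the same regions. In mES they shared 1382 regions, 98.0% of the 1410 of run 2 and 87.3% of the 1583 of run 1. In mEF they shared 741, 96.6% of 767 and 88.9% of 834. Unspliced alignments were shared in like measure, with 94.9% of the run 2 positions also in run 1 in mES and 96.0% in mEF. Runs 1 and 2 are therefore counted below as 1 library set and run 3 as the other, without a claim on which of the 6 libraries they hold.

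No region can be in both library sets, because an alignment of a 45-nt read covers 10 nt more than that of a 35-nt read over the same intron. Introns can be compared. In mES, 130 introns were in both sets, 13.9% of the 934 in set 1 and 23.1% of the 563 in set 2. In mEF they were 45, or 8.23% of 547 and 28.3% of 159. For genes the shared numbers were 140 in mES (26.2% and 34.0%) and 61 in mEF (18.3% and 46.6%).

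Between the cell types, 171 regions were shared, 7.61% of the mES and 16.5% of the mEF regions. Unspliced alignments shared 5.83% and 12.1% of their positions. By intron the overlap was 274, or 20.04% of 1367 and 41.5% of 661, and by gene 229, or 28.4% of 807 and 56.7% of 404. The shared regions held more records than the others, a median of 21 in mES and 22 in mEF against 9 and 14 for regions of 1 aggregate. They carried 18.9% of the mES and 28.8% of the mEF intron-spanning records. Nearly all, 166 of 171, were in set 1.

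**Figure D3:**
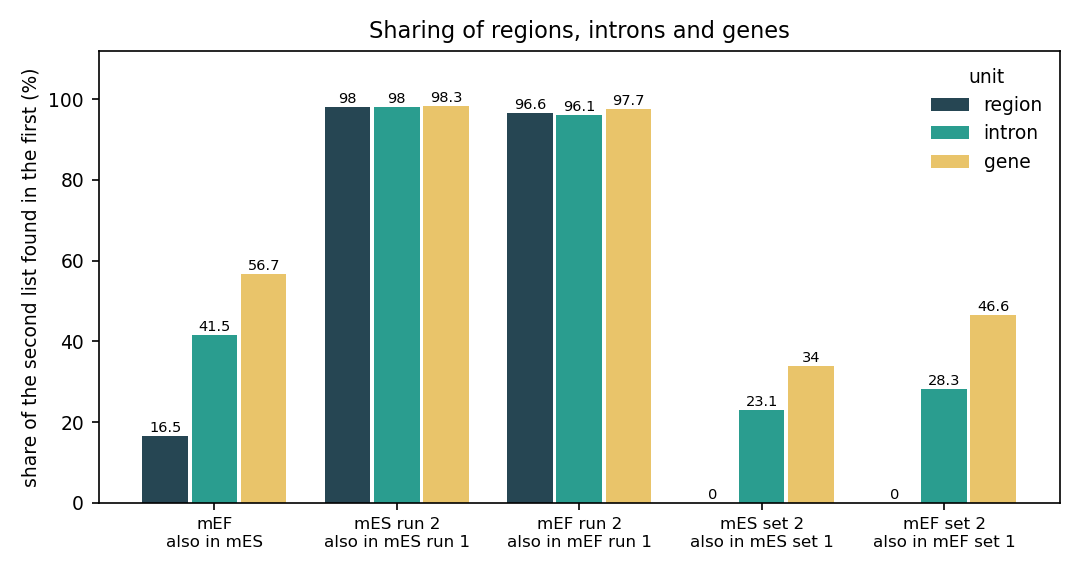
Share of the second-named list (y axis, %) that is also found in the first-named, for regions, introns and genes; each group of bars compares cell types, runs or library sets. Runs 1 and 2 share 96.1% or more of the run 2 entries, whereas library sets share 0 regions and 23.1% to 46.6% of introns or genes, and 16.5% of mEF regions are also in mES.

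Introns crossed in both cell types and both sets numbered 22, in 20 genes, and 20 of them lie in ribosomal protein genes. They held 10.3% of all intron-spanning records. The last intron of Rpl13a had the most records. Its counts were 523 in set 1 and 20 in set 2 for mES, and 562 and 11 for mEF. The others outside the ribosome were the 516-nt intron of S100a6, which encodes a calcium-binding protein, and the 950-nt intron of Eef1a1, which encodes the elongation factor that brings aminoacyl-tRNA to the ribosome. S100a6 had 7 and 4 mES records and 194 and 5 mEF records over this intron. Eef1a1 had 15 and 3 in mES and 7 and 1 in mEF.

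The place of crossed introns was measured from the 3′ end of transcripts. The same distance was not computed for all introns of these genes, so a preference for the 3′ end is not shown. In short transcripts even a first intron lies near the end, as in Rpl38 (285 nt, 1527 records) and Rpl41 (364 nt, 1603 records). The exon sequence from the joint to the annotated 3′ end had a median of 863 nt over 1531 introns with a placed position, and of 377 nt over their records. Within 1000 nt lay 818 introns (53.4%, 50.9% to 56.0%) but 82.3% of records. The last intron of the transcript was crossed in 425 cases (27.8%), the next to last in 293 and the one before in 206. These distances use the annotated transcript that holds the most crossed introns of the gene. With the shortest distance among the basic transcripts of the gene, the medians were 567 nt over introns and 304 nt over records, and 63.6% of introns lay within 1000 nt.

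Introns with less exon sequence to the 3′ end were sampled more densely. The part of short and abundant transcripts in this was not tested. Those within 100 nt had 7.46 regions each, those above 300 and up to 500 nt 2.13 and those above 1000 and up to 2000 nt 1.46. The share found in both cell types fell likewise, from 72.7% of 22 introns within 100 nt to 25.5% above 300 and up to 500 nt and 2.19% of 137 beyond 5000 nt. Introns of mEF lay closer to the end than those of mES, with medians of 528.5 and 877 nt. Weighted by each cell type's own records, the medians were 377 nt in mES and 381 nt in mEF. Of the placed introns, 1409 were in coding sequence, 71 in 5′ UTRs, 37 in 3′ UTRs and 14 in noncoding transcripts. Crossed introns were also shorter than the genes' introns as a whole, with medians of 839 nt against 1255 nt over 16078 annotated introns of the same genes.

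**Figure D4:**
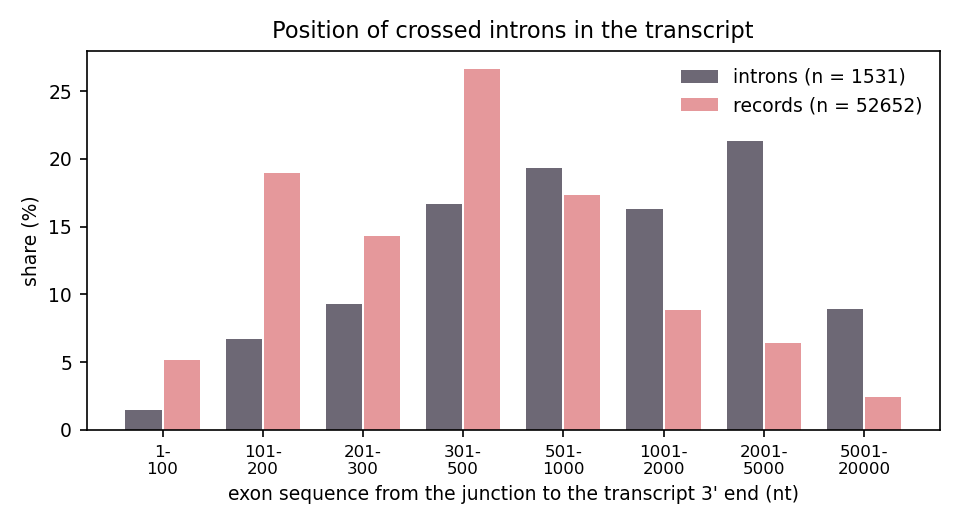
Share of the 1531 placed introns and of their records (y axis, %) by the length of exon sequence between the joint and the annotated 3′ end (x axis, nt, in classes). Records peak in the class up to 500 nt with 26.6%, and introns in the class up to 5000 nt with 21.3%.

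Ribosomal protein genes held the largest group of regions. Of 86 Rpl and Rps genes, close relatives such as Rps27l included, 79 had a region, 78 in mES and 76 in mEF. They made up 42.1% of mES and 47.1% of mEF regions, and 56.7% and 59.2% of intron-spanning records. The 10 genes with the most regions all belong to this group. Rpl38 had the most, with 34 regions in mES and 28 in mEF over 6 gaps, within chr11:114529892-114533610 (mm9). Its records were 1188 in set 1 and 14 in set 2 of mES and 896 and 7 in mEF, or 2132 and 2546 per 1000000 records with the highest score (CPM). Rpl13a followed with 35 and 15 regions and 1345 and 2191 CPM, Rpl23a with 31 and 19 regions and 1063 and 1460 CPM, and Rps24 with 27 and 14 regions and 656 and 987 CPM. The other 6, Rpl12, Rps21, Rpl23, Rps12, Rps14 and Rps25, had 28 to 37 regions each over both aggregates. All 10 differed by under 2-fold between the cell types, from 1.05-fold for Rps14 to 1.91-fold for Rps12, which was higher in mES.

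Of the 982 genes, 619 (63.0%) had a single region and 122 had 5 or more. Levels in mES and mEF were compared for the 559 genes with at least 10 intron-spanning records over both, with a count of 0 taken at 3, which equals 5.32 CPM in mES and 8.46 CPM in mEF. Those past 4-fold toward mES were 151 genes (27%), and those past 4-fold toward mEF 136 (24.3%). Most of these genes had no record in the other aggregate, 129 and 96. Because the depths differ, taking 0 at 3 does not act alike in both directions. Hist1h2bc, with 0 mES and 11 mEF records, passed at a log2 ratio of -2.54. Hnrnpa3, with 19 and 0, did not at 1.995. The counts toward mES and toward mEF thus rest on unequal limits. For all records with the highest score, joined into 12180 loci of at least 10 records, the shares were 32.1% and 25%, so those of the genes with intron-spanning records were not above them. By distinct regions in place of records, 9 genes were past 4-fold toward mES and 5 toward mEF. Here too 0 regions were taken at 3, which holds back genes with no mEF region. Set, with 7 mES regions and 1 mEF region, passed at a log2 ratio of 2.14. Serbp1, with 10 and 0, did not at 1.07. The lower counts are thus in part a product of this setting.

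Those 5 genes were Lgals1, S100a6, Tpm2, Vim and Serf2, a set formed after its values were seen. Lgals1, which encodes the sugar-binding protein galectin-1, had 0 mES records and 193 mEF records, 132 in run 1 and 61 in run 2. They formed 8 regions over all 3 of its introns, within chr15:78757210-78760442 (mm9), and the level in mEF was 544 CPM (470 to 627). With the mES count taken at 3, this was 102-fold higher than in mES, a log2 ratio of -6.68. No interval is given for this ratio, since the mES count was 0. S100a6 had 62 mES records in 4 regions and 384 mEF records in 15, or 110 and 1083 CPM, a 9.84-fold difference. Tpm2, which encodes a tropomyosin that lines actin filaments, had 18 records in 1 region and 167 in 5, or 31.9 and 471 CPM. The mEF level was higher 14.7-fold.

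Vim encodes vimentin, the intermediate filament protein of mesenchymal cells. It had 8 mES records in 1 region and 85 mEF records in 4, or 14.2 and 240 CPM, a 16.9-fold difference. Serf2, a small gene whose product is known to promote protein aggregation, had 15 records in 1 region and 116 in 8, or 26.6 and 327 CPM. In all 5 genes the records of runs 1 and 2 showed the same direction. These runs share nearly all their regions and count as 1 library set, so this is no separate support. Run 3 gave 5 mEF and 4 mES records of S100a6 and 0 of the others. Among genes with 5 or more regions, Rps9 had the fifth largest ratio of records toward mEF, with 10 mES and 73 mEF records (11.6-fold), in 2 and 4 regions.

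The 9 genes over 4-fold higher in mES by regions were Ncl, Rpl8, Hspa8, Rpl3, Rpl21, Rpl27a, Rps2, Ybx1 and Set, likewise a set formed after its values were seen. Ncl encodes nucleolin, an abundant protein of the nucleolus, and had 14 mES regions with 275 records against 1 mEF region with 19, or 488 and 53.6 CPM, a 9.11-fold difference. Set, which encodes a histone chaperone, had 150 records in 7 regions and 12 in 1. The mES records of Set were all in set 1 and the mEF records all in run 3. Rpl8 had 157 records in 10 regions and 1 record, a log2 ratio of 6.63 (4.13 to 11.94). Hspa8, a heat shock chaperone gene, had 10 regions against 1 but only 2.04-fold more by CPM.

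By records, the genes with the largest ratio toward mES among those with 5 or more regions were Rpl8, Serbp1, Rps4x, Eif3k and Mt2. Serbp1, which encodes an mRNA-binding protein of the ribosome, had 326 mES records in 10 regions and 0 in mEF. With the 0 taken at 3, this was 68.4-fold higher. Rps4x had 160 records in 8 regions, Eif3k, a subunit gene of a translation initiation complex, 116 in 9, and Mt2, a metallothionein gene, 110 in 8, each with 0 in mEF. With the 0 taken at 3, their ratios were 33.6-fold, 24.3-fold and 23.1-fold.

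The records that do not cross an intron are a readout the rule did not use. For each named gene they were counted on its strand between its outermost intron-spanning alignments, extended 1000 nt downstream. They can include reads of introns and of overlapping genes, and they miss reads that lie further downstream. Some genes had none, such as Rplp2, with 76 mES and 89 mEF intron-spanning records and 0 unspliced records in either. Lgals1 had 202 such mES records and 842 mEF records, or 358 and 2374 CPM. The other mEF genes moved alike, with 1955 and 10090 CPM for S100a6, 463 and 2526 for Vim, 71.0 and 350 for Tpm2 and 381 and 1311 for Serf2. Ncl (1746 and 327 CPM), Set (3376 and 713) and Mt2 (630 and 113) were also higher in mES. Serbp1 had 841 and 335.5 CPM, Rps4x 1462 and 803.5 and Eif3k 260.8 and 84.6. Their unspliced log2 ratios of 1.326, 0.863 and 1.625 were far smaller than those by intron-spanning records. Hspa8 had 2053 and 758 CPM. For the ribosomal protein genes among the 9 higher in mES by regions, the unspliced log2 ratio was small, with 0.20 for Rpl8, 0.27 for Rpl3, 0.14 for Rpl21, 0.13 for Rps2 and -0.38 for Rpl27a. Rps9 had 1441 and 1469 CPM. Ybx1, an mRNA-binding protein gene with 111 and 8 intron-spanning records, had 1121 and 1522 CPM by unspliced records.

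Over all genes the readouts went together only in part. Of the 151 genes over 4-fold higher in mES by intron-spanning records, 110 had at least 10 unspliced records, and 80 of these were higher in mES and 30 in mEF. Of the 136 higher in mEF, 80 had enough, of which 42 were higher in mEF and 38 in mES. Over 389 genes, 67 were over 4-fold different in the same direction by both and 31 in opposite directions. Over the 177 genes with records of both kinds in both aggregates, Pearson's r of the log2 ratios was 0.15 and Spearman's rho 0.19. For the 113 of these with 5 or more regions they were 0.30 and 0.26. These points share libraries and depth and are given as a description. Unspliced reads past the counted stretch are missed, and how far this lowers these values was not tested. S100a4 went furthest apart, with 67 mES and 1 mEF intron-spanning records in 3 regions (log2 ratio 5.40, 2.87 to 10.72) but 19 and 380 unspliced records, or 33.7 and 1071 CPM.

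**Figure D5:**
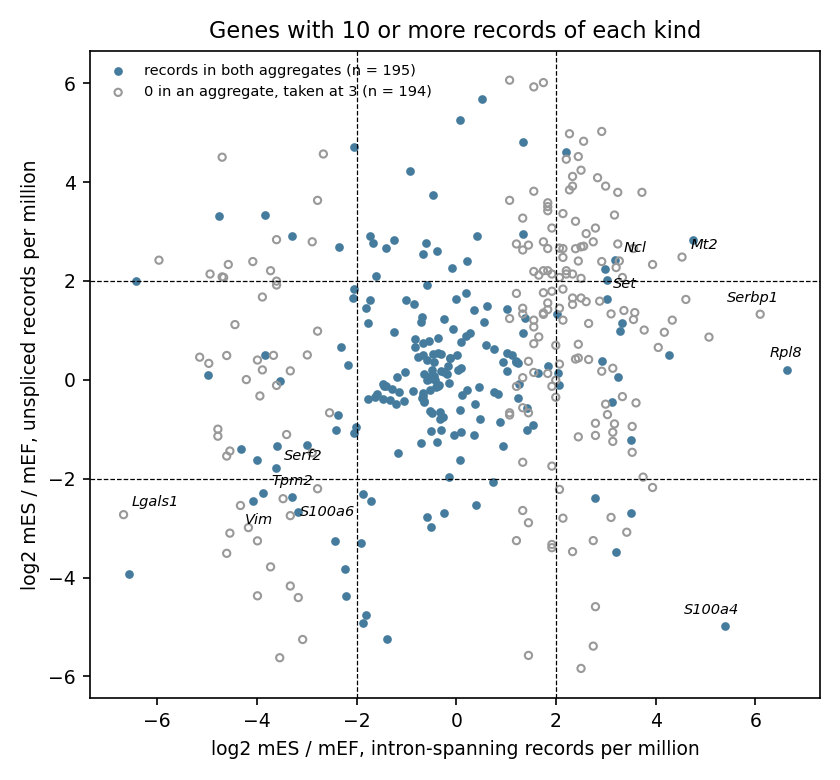
Log2 ratio of mES over mEF for 389 genes with at least 10 records of each kind, by the CPM of intron-spanning records (x axis) and of unspliced records (y axis); filled points have intron-spanning records in both aggregates (n = 195), open points have 0 in 1 aggregate, and a 0 of either kind is taken at 3. Dashed lines mark 4-fold, and points lie in all corners, with 67 genes past 4-fold in the same direction and 31 in opposite directions.

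Among ribosomal protein genes, all 79 had at least 10 records, and 6 were past 4-fold toward mES and 5 toward mEF. The shares over all genes tested were 27% and 24.3%, but most of those calls had 0 records in 1 aggregate. Of the 122 genes with 5 or more regions, 16 and 9 were past 4-fold. Most of these 122 are themselves ribosomal protein genes, so they are no separate group to compare with. The median log2 ratio of mES over mEF of the ribosomal protein genes was -0.31. It was 1.07 over the 559 genes and -0.29 over the 122 genes with 5 or more regions. Ribosomal protein genes ranged from -4.61 for Rps6 to 6.63 for Rpl8. Rps6 had 0 mES records and 46 mEF records in 1 region, whereas its unspliced records gave 1600 and 1139 CPM. Rpl31 was higher in mES with 214 and 7 records in 12 and 3 regions.

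The genes of the actin and contractile cytoskeleton, which set cell shape and tension, had the larger share of records in mEF. Of 16 listed, 6 had a region, with 207 mES and 470 mEF records in all, or 367 and 1325 CPM. Of the 5 with at least 10 records, Tpm2, Tmsb4x and Tpm1 were over 4-fold higher in mEF and 0 in mES, where the shares over all genes tested were 24.3% and 27%. Tmsb4x, which encodes an actin-sequestering peptide, had 4 and 40 records, and Tpm1 18 and 47. Myl6, a myosin light chain gene, had 124 and 173 records in 6 and 8 regions, 2.22-fold higher in mEF by CPM. Acta2, the smooth muscle actin gene, had 42 and 40 records, or 74.5 and 112.8 CPM.

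Of 6 galectin and S100 genes, 4 had a region, with 129 mES and 601 mEF records. Besides Lgals1, S100a6 and S100a4, S100a11 had 0 and 23 records in 1 region, whereas its unspliced records were 34 and 0. Of 8 translation factor genes 5 had a region, with 335 and 118 records, and Eif3k was the only one of them over 4-fold different. Eef1b2, part of the factor that recharges elongation factor 1, had 126 and 163.5 CPM in mES and mEF, Eif4a1, an RNA helicase gene of initiation, 127.7 and 110 CPM, and Eef1g 74.5 and 36.7 CPM. Of 8 glycolysis genes 4 had a region, with 31 and 40 records. Pgk1 had 22 and 18 of these, or 39.0 and 50.8 CPM, and Gpi1 2 and 18, the latter over 4-fold higher in mEF. Of 9 splicing factor genes 4 had a region, all in mES only, with 50 and 0 records, while of all 982 named genes 578 (58.9%) were found in mES only. U2af1, which helps to recognise the 3′ splice site, had 30 of these and was 6.29-fold higher in mES with the 0 taken at 3, and Hnrnpa2b1 had 13. Unspliced records of all 4 were found in mEF as well, with 343 mES and 98 mEF records for U2af1, 430 and 209 for Hnrnpa2b1, 303 and 19 for Srsf3 and 44 and 18 for Srsf5.

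The markers of the cell types were thinly covered. Of 12 stem cell markers 3 had a region, all in mES only like 58.9% of named genes, with 15 records for Tdh, which encodes threonine dehydrogenase, 10 for Jarid2, a gene of a Polycomb partner, and 6 for Dppa5a. The other 9, among them Pou5f1, Sox2 and Nanog, had 0 regions, so the identity of the mES aggregate was not shown by these records alone. Of 12 fibroblast markers 6 had a region, 3 of them in mES as well, with 53 mES and 181 mEF records. Besides Vim, Col1a2, a chain of type I collagen, had 26 and 43 records, or 46.1 and 121 CPM. Fn1, which encodes fibronectin, had 0 and 34 records. Sparc, a matrix protein gene, had 19 and 17, or 33.7 and 47.9 CPM. Their unspliced records gave 85.2 and 3220 CPM for Col1a2 and 373 and 2955 CPM for Sparc, both higher in mEF. Col3a1 and Bgn had 1 mEF record each, and Col1a1 and the others had 0. Of 5 epithelial or trophoblast markers only Epcam had a region, with 8 mES records. Of 5 markers of blood and endothelial cells, 4 of them in the annotation, 0 had a region. The part of such cells, or of feeder or stray RNA, in the gene differences was not tested.

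In 4 genes different introns overlapped, so that both cannot be removed from the same RNA molecule. These genes, Rps24, Rpl38, Fau and Hnrnpa2b1, came from a search over 1531 placed introns and are named after the values were seen. In Rps24 the 2281-nt intron skips the 20-nt exon shown above, and it had 99 mES records in 9 regions and 51 mEF records in 2. The exon was joined on its upstream side, over 1936 nt, in 0 mES and 74 mEF records, and on its downstream side, over 325 nt, in 54 and 35. Reads over both of its sides, with a gap of 2261 nt, gave 45 and 84 records.

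By regions, the exon was included in 5 of 14 mES regions (35.7%, 12.8% to 64.9%) and in 4 of 6 mEF regions (66.7%, 22.3% to 95.7%). By records the shares were 50.0% (42.8% to 57.2%) and 79.1% (73.5% to 84.0%). The intervals over regions overlap widely, whereas those over records, which count copies, do not. Set 2 gave 2 of 7 regions in mES and 1 of 1 in mEF. An included exon can be seen at its upstream joint, its downstream joint or both, but a skipped one at 1 joint only. These shares are therefore not the share of RNA molecules that hold the exon.

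In Rpl38 the introns after the first exon differed in their start. The 171-nt intron had 890 mES records in 17 regions and 637 mEF records in 13. The 154-nt intron, which starts 17 nt further downstream and ends at the same place, had 99 mES records in 5 regions and 0 mEF records. All 99 were in set 1. In Fau, which encodes a fusion of a ubiquitin-like protein and a ribosomal protein, the introns of 241 and 244 nt differ by 3 nt at their 3′ end and had 19 and 4 mES records and 6 and 0 mEF records. In Hnrnpa2b1 the introns of 156 and 1977 nt had 5 and 7 mES records and 0 in mEF.

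A read also crossed 2 introns at once where the exon between them was shorter than the read. This was seen for 8 gaps in 7 genes, with exons of 6 to 34 nt. Besides Rps24, Rpl41, which encodes the smallest ribosomal protein, had 8 mES and 22 mEF such records over a 25-nt exon and 16 and 5 over a 23-nt exon. Gpx4, a gene for a peroxidase of membrane lipids, had 23 and 0 over a 25-nt exon. The Fam92a exon was 6 nt long and had 10 mES records. Nap1l1, Rpl38 and Atp5mpl had 1 to 6 records each.

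A length of no annotated intron was found for 2 gaps. In chr11:3024108-3025817 (mm9, plus strand) 3 mEF regions with 60 records and 0 mES records shared a gap of 1663 nt. In chr2:98502945-98506578 (mm9, plus strand) 1 mES region with 12 records had a gap of 3589 nt.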

How the data were processed

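The data are 6 Hi-SCL libraries, from which the authors deposited 1 list of alignments for mES and 1 for mEF, as positions and a mapping score. Per the labels, TopHat was used with mm9, and the paper names a reference transcriptome as the target of alignment. Its version is not given in the sources used here. The deposited score is set by the aligner, and its highest value was taken as a single placement. Whether barcodes were pooled by nominal type or by cluster is not stated. The barcode list was not used. No library could be assigned to 1 cell type, so none entered a comparison.

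Spans, regions, runs (from the read names, numbered by records) and CPM (per 1000000 records with the highest score) were computed with Python 3.11.15, numpy 2.4.6, pandas 2.3.3, scipy 1.17.1 and matplotlib 3.10.9. Depth was 563663 mES and 354705 mEF such records, and 3 counts are 5.32 and 8.46 CPM. The introns of GENCODE M21 (GRCm38, readthrough transcripts left out) were compared by length, by distance up to 500000 nt and by gene order, never by position, since 432 intron-spanning records lie past its last gene on their chromosome. For that reason the match planned against an mm9 annotation was replaced by this one. Loci were joined from 5′ ends at most 500 nt apart. Naming and fold steps were tested on simulated data.

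Members, gene lists and tests were chosen with earlier results of these data known. Named were the 10 genes with most regions, the 5 with the largest ratio in each direction among those with 5 or more regions, list members, the extreme spans and the introns with most records in both aggregates and sets. The last rule was written for regions and was moved to introns after it was seen that no region can be in both sets. Alternatives were other limits on span, score, records and run, thinning, pseudocounts, and naming by distance only. One item among the introns with most records is not reported here.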

Additional observations from a re-analysis of the deposited data

Results flagged for a closer look

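Intron-spanning records also occurred among alignments with a score below the highest, which have several placements and were in none of the comparisons above. There were 3234 such records in 157 regions of mES, 1.98% (1.92% to 2.05%) of the 162968 records with a lower score, and 3365 in 103 regions of mEF, 3.31% (3.20% to 3.42%) of 101771. Both shares are below the 5.82% and 6.29% among records with the highest score. These records stood out because they are a signal in data left aside, above the 3 counts put in place of 0. Their genes were not named here.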

How the results depend on the processing

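Values given in pairs are for mES and then mEF. With a span of at least 200 nt, the share of records was 4.46% and 5.05% and the median span 779 and 682.5 nt. With all mapping scores, the share was 4.96% and 5.62%. Without run 3, the share was 6.13% and 6.51%, the mES median span 464 nt, the share of regions in both aggregates 10.3% and 19.3% and the genes with an mES region 511, named from those runs alone. With run 3 only, there were 637 and 175 regions, shares of 3.75% and 3.08%, median spans of 861 and 640 nt, 0.785% and 2.86% of regions in both aggregates, 323 and 107 genes, and 99.4% of gaps equal to an annotated intron. That match was 99.9% with consecutive introns summed. Over distinct positions the share was 5.46% and 5.22%, and over records the median span was 404 and 402 nt. With ends allowed to differ by 2 nt, 16.2% of mES and 30.7% of mEF regions were in both aggregates, and by introns 20.04% and 41.5%. By introns, 9.64% were in both library sets, against 0 regions, also with ends 2 nt apart or at least 2 records. Genes named from 2 introns at the annotated distance (added after seeing the data, as were the introns, the genes with 2 regions and the unspliced records) were 310 and 211. The 151 and 136 genes over 4-fold became 74 and 39 with that naming and 85 and 50 with at least 2 regions. They were 98 and 54 by unspliced records and 9 and 5 by distinct regions. By regions, a gene needs more than 3 in 1 aggregate and 0 is taken at 3. With 1 CPM added, 272 genes were over 4-fold in mES. Fewer genes are tested under the first 4 of these. The cause of the other changes was not tested. The other 75 values stayed within the 95% interval of the reported value or, for counts, within 1.5 times. For the 10 genes named for their ratio, 24 values moved past their interval and 36 did not, and none changed direction. In these intervals a count of 0 was entered as 3, so for such genes they do not measure counting error. An assignment of regions to genes that contain them was not run, as no annotation of the build was used. No paired analysis was possible because each cell type is 1 pool, with no replicate number in its columns. Depth limits the genes with few records, since 0 in mEF has an exact 95% upper limit of 10.4 CPM, above the 8.46 CPM put in its place.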
